A study of Mus musculus with 6 samples.

Results

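The cytosolic ribosomal protein genes of mouse regulatory T cells (Treg) were compared between p300-deleted and control cells. They were taken as the genes whose annotated symbol starts with Rpl or Rps and a digit, with Rplp0, Rplp1, Rplp2 and Rpsa added. The Rps6k kinases, the paralogues whose names end in l and the pseudogenes were left out. Of 12394 genes that an array probe set named alone, 42 met this rule: 20 proteins of the large (60S) subunit, 20 of the small (40S) subunit, and the stalk proteins Rplp0 and Rplp2. A further 27 ribosomal protein genes, Rpl3 and Rplp1 among them, were read only by probe sets that list several genes, and these are described separately.

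RNA from 6 samples of CD4+CD25+ T cells, enriched with magnetic beads from C57Bl/6 mice, was hybridized to 1 expression array each. The 3 p300-deleted samples came from fl-p300/Foxp3cre mice, in which Cre from the Foxp3 locus removes the floxed gene of the histone acetyltransferase p300, and the 3 controls are labelled as Foxp3cre controls in their genotype and as WT in their titles. By the genotype labels both groups carry Foxp3cre, which was not checked in these data, and samples are numbered as in their titles. The samples are labelled as independent, but whether each is a separate animal is not given. The p-values below therefore describe the variation among these samples, estimated partly from all genes together, and part of it may be technical. Bead enrichment leaves other cells in a sample. In such bulk RNA, fewer cells of a type and less RNA per cell cannot be told apart.

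Ribosomal proteins assemble with ribosomal RNA into the small subunit, which reads the mRNA, and the large subunit, which joins amino acids. The stalk of the large subunit recruits the translation factors that use GTP. Most mRNAs of ribosomal proteins start with a stretch of pyrimidines, the 5′ terminal oligopyrimidine (TOP) motif, through which mTOR signalling controls their translation. T cells make many ribosomes when they are activated and grow, and in mice Rpl22 is needed for the development of αβ T cells.

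The pyrimidine stretch at the start of transcription is the sequence feature that marks these genes as a class and that the selection by symbol did not use. RefSeq promoters of the assembly GRCm38.p6 were found for 37 of the 42 genes, with 43 annotated starts. Shown here 5′ to 3′ on the gene's strand are the 30 bases before and the 20 from the annotated start of 9 genes, most of which have their values given below, while Rps10 and Rpl35 are shown for their long stretches, with the longest run of C or T near the start in capitals.
Rplp2, chr7:141447621-141447670, plus strand: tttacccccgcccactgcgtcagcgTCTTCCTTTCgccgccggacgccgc
Rpl38, chr11:114668550-114668599, plus strand: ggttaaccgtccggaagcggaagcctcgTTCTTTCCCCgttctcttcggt
Rplp0, chr5:115559437-115559486, plus strand: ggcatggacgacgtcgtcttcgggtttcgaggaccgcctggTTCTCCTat
Rps27, chr3:90213629-90213678, minus strand: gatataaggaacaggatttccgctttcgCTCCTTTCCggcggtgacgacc
Rps6, chr4:86857348-86857397, minus strand: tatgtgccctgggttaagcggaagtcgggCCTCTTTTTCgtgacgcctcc
Rpl27a, chr7:109519165-109519214, plus strand: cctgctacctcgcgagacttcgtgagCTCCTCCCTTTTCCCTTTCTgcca
Rps10, chr17:27635225-27635274, minus strand: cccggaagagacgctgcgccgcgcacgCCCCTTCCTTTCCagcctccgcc
Rpl35, chr2:39005112-39005161, minus strand: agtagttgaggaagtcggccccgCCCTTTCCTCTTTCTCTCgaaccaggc
Rpl22, chr4:152325696-152325745, plus strand, 1 of its 2 starts: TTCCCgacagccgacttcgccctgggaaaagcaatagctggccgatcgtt
In Rplp2, Rpl38, Rps27, Rps6, Rpl27a, Rps10 and Rpl35 the run spans the annotated start, with lengths of 10, 10, 9, 10, 20, 13 and 18 bases. In Rplp0 the longest run was 7 bases and lay wholly after the annotated start. At the Rpl22 start shown the longest run was 5 bases and lay at the edge of the window. A run of at least 8 pyrimidines on the gene's strand, within 30 bases on either side of the start, was found at 22 of 43 member starts (51.2%) and at 22.9% of all 32851 starts. The longest run had a median of 8 bases at member starts and 5 at all starts.

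Other short motifs were counted in the same promoters. Within the same distance of the start, on the gene's strand, CTTTC was found at 30.2% of member starts and 7.93% of all starts. CTTTCC, which contains CTTTC, was found at 16.3% and 2.89%, and CTTTTC at 9.3% and 2.11%. Over the 300 bases on both strands, CCGGAAG, the core bound by ETS family factors, was found at 44.2% of member starts and 8.86% of all starts. The Sp1 core GGGCGG stood at 53.5% and 35.7% and the YY1 core AAGATGGC at 6.98% and 2.75%. TATAAA, the TATA box, was found at 11.6% and 13.6%, and CCAAT at 30.2% and 37.4%. The GC content of the promoters had a median of 57.7% at member starts and 52.7% at all starts. These matches describe letters in a window and are not measured binding.

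Array quality and cell markers were compared before the members. Array medians lay between 5.38 and 5.46 on the log2 scale of RMA, the array method that corrects background, equalizes the distributions of the arrays and combines the probes of each set. The 18S ribosomal RNA control probe sets averaged 7.74 to 9.47 in the p300-deleted samples and 5.68 to 8.69 in the controls, with control 3 at 8.69 and the other controls at 5.68 and 6.03. The difference between the 3′ and 5′ Gapdh controls, a sign of RNA quality, was 0.06 to 0.14 in the p300-deleted samples and 0.21 to 0.59 in the controls. For the actin controls the same difference overlapped, at 0.29 to 0.43 and 0.30 to 0.46. T cell markers averaged 11.11 to 11.20 and 10.89 to 11.09. The 8 Treg markers averaged 8.59 to 8.66 and 9.11 to 9.29, and Foxp3, their defining gene, read 2.57, 3.04 and 3.15 in the p300-deleted samples and 9.63, 9.35 and 9.39 in the controls. Of the 8, 4 others (Il2ra, Ctla4, Izumo1r and Gpr83) were higher in every p300-deleted array than in any control, as were 10.5% of all genes tested. Izumo1r passed the limma test (log2 difference 0.62, adjusted p = 0.0458). Ikzf2 (0.60), Nrp1 (0.05) and Tnfrsf18 (-0.16) overlapped. The lower mean of the Treg list therefore rests on Foxp3, which differed by -6.53. Plasma cell markers (7 of 8 measured) averaged 8.46 to 9.0 against 7.66 to 7.76, and 5 of the 7 passed the limma test at an adjusted p under 0.05, against 1.72% of all genes tested. Without overlap too, the 11 myeloid markers averaged 5.34 to 6.96 against 4.32 to 5.03, the 6 mast cell and basophil markers 5.56 to 6.23 against 4.53 to 4.76, the 5 NK cell markers measured 7.64 to 8.27 against 7.46 to 7.6, and the 2 CD8 T cell markers 5.36 to 5.55 against 5.18 to 5.25. The 14 cell cycle genes measured averaged 6.46 to 6.95 against 7.19 to 8.06, and B cell, erythroid and platelet markers overlapped between the groups. No probe set used here is annotated to the p300 gene Ep300, so the deletion itself was not checked.

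None of the 42 ribosomal protein genes passed the test between p300-deleted and control Treg. Their differences (p300-deleted minus control, in log2 units) had a median of -0.02, with quartiles of -0.07 and 0.00, and ran from -0.21 for Rpl14 to 1.35 for Rpl27a. The median over all 8676 genes tested was -0.03. The difference was above 0 in 13 members and below 0 in 29. At an adjusted p under 0.05, from limma with Benjamini-Hochberg adjustment over all 8676 genes, 0 of 42 members rose and 0 fell, against 1.72% of all genes tested (0.991% higher and 0.726% lower), so a count of 0 in a list of this size is near the background. The lowest adjusted p of a member was 0.188. At an unadjusted p under 0.05, 1 of 42 members was higher and 0 were lower, against 18.1% of all genes. The 3 arrays of one group lay wholly on one side of the other group's in 5 of 42 members, against 23.7% of all genes: Rps6 was higher (10.5% of all genes) and Rplp0, Rplp2, Rps2 and Rps26 were lower (13.2%). With 3 samples against 3, an exact permutation test of a single value cannot go below p = 0.1.

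**Figure D1:**
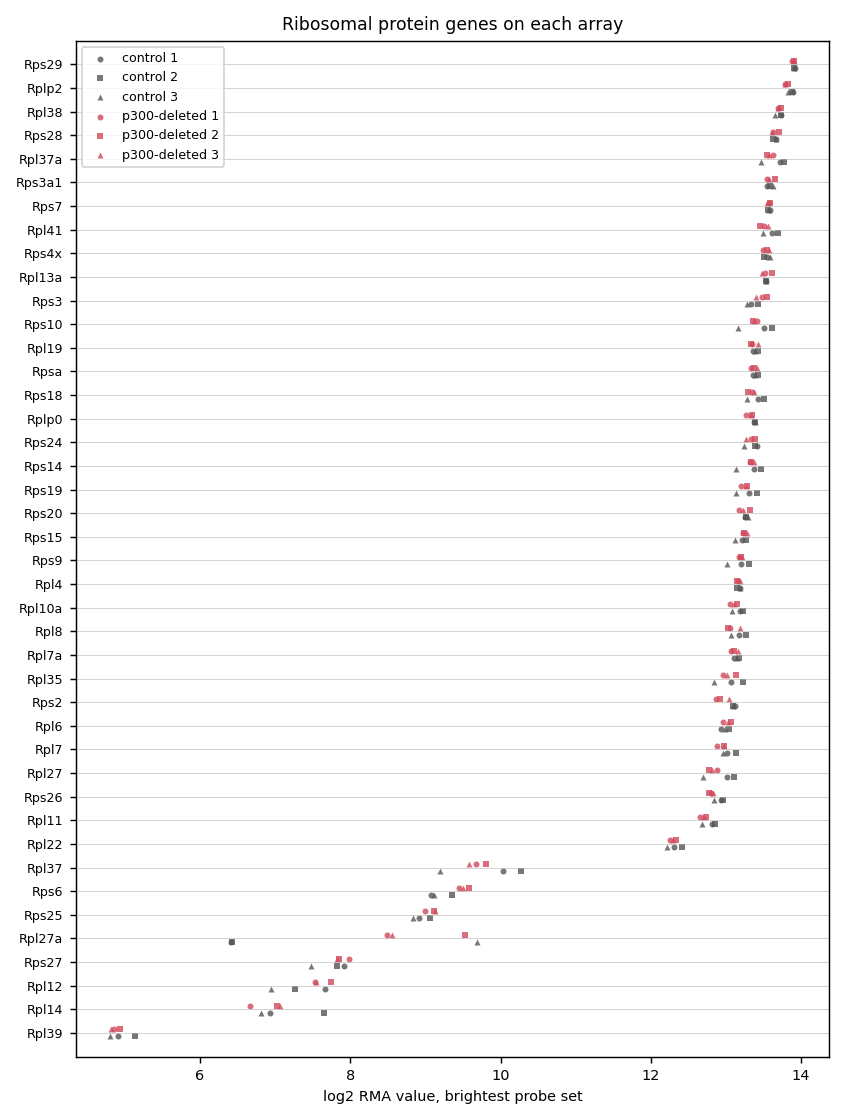
Log2 RMA value (horizontal axis) of the brightest probe set of each of the 42 ribosomal protein genes, with 1 symbol for each of the 3 p300-deleted and 3 control arrays. In 34 genes the points of the 6 arrays lie close together between 12 and 14, while the points of Rpl27a spread from 6.41 to 9.68.

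The members' signals were bright and varied little. The mean over the 6 arrays was at least 12 in 34 members, from 12.30 to 13.91, where 98 of all 12394 genes reached this level, and the highest value on any array was 13.98 to 14.03. The limit of 12 was chosen after the values were seen. A probe set's brightness depends on its probes as well as on its transcript, so these levels do not rank the genes by abundance. Whether values so near the highest on the arrays still follow changes in RNA was not tested. Small differences there therefore do not show that transcript levels were unchanged. In these 34 members the difference between the groups was at most 0.16 in size, and it was within 0.1 in 30 of them. Their range over all 6 arrays had a median of 0.18, against 0.46 for all genes tested. The 95% interval of the difference extended by a median of 0.22 and at most 0.30 to either side in the 34, and by a median of 0.29 in all genes tested. The median SE of a member's difference was 0.101 and that of all genes 0.126. The limma fit draws each gene's variance toward a value shared by all genes, which raises the SE of members with little spread. Rplp2, for example, had SDs of 0.02 and 0.03 within the groups and an SE of 0.09. The p-values of such members, and the count of those under 0.05, depend on this shared value too.

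Small shifts between arrays were shared by many of the bright members. The 34 averaged 13.25, 13.29 and 13.28 in the p300-deleted samples and 13.31, 13.36 and 13.23 in the controls. Control 2 was the highest of the 6 arrays in 17 of the 34 and control 3 the lowest in 13, and the lowest and highest array means were both from controls. The p300-deleted sample 1 was the lowest in 11 of the 34. Over all 42 members, the mean was 12.24, 12.32 and 12.28 in the p300-deleted samples and 12.25, 12.32 and 12.21 in the controls. Over the 42 both groups therefore spanned nearly the same range, while over the 34 the controls spanned a wider one than the p300-deleted samples.

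**Figure D2:**
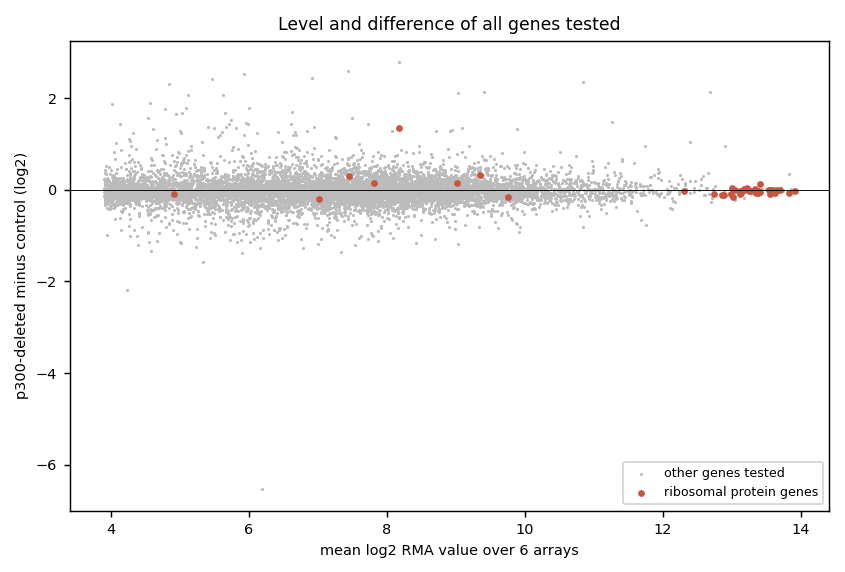
Mean log2 RMA value over the 6 arrays (horizontal axis) and the log2 difference, p300-deleted minus control (vertical axis), for all 8676 genes tested, with the ribosomal protein genes as larger points. Most ribosomal protein genes lie at the bright end close to 0, and Rpl27a, at 1.35, stands above the other members.

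The stalk proteins both read slightly lower in the p300-deleted samples. Rplp0, the protein at the base of the stalk that carries the acidic P proteins, had values of 13.27, 13.35 and 13.33 in the p300-deleted samples and 13.37, 13.38 and 13.39 in the controls. Rplp2, 1 of the acidic P proteins that recruit elongation factors, had values of 13.79, 13.82 and 13.78 and, in the controls, 13.89, 13.88 and 13.83. In both genes the groups did not overlap, though the highest p300-deleted array and the lowest control array were only hundredths of a log2 unit apart. The differences were -0.06 for Rplp0 (SE 0.09, adjusted p = 0.793) and -0.07 for Rplp2 (SE 0.09, adjusted p = 0.751). The third stalk protein, Rplp1, was read only by a probe set that lists another symbol too, which differed by -0.05.

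In the 40S subunit, 0 of 20 proteins passed the test, and the median difference was -0.01, with 8 above 0 and 12 below. Rps6, the protein that S6 kinases phosphorylate downstream of mTOR, had the only unadjusted p under 0.05 among the 42. It read 9.45, 9.58 and 9.50 in the p300-deleted samples and 9.07, 9.36 and 9.12 in the controls. Every p300-deleted array was above every control array, the nearest being control 2. By limma the difference was 0.33 (SE 0.11), with an unadjusted p of 0.0198 and an adjusted p of 0.188. Under weights estimated for each array it was 0.41 and passed the test (adjusted p = 0.0278). With those weights 1019 of all genes tested passed, against 149 without them. With the mean of both Rps6 probe sets the difference was 0.05, but the second averaged only 3.19 and was too dim to be tested alone. Over all 17 alternative fits the Rps6 difference ran from 0.05 to 0.49.

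Rps3 and Rps2, which line the entry of the mRNA channel, differed in opposite directions. Rps3 read 13.48, 13.54 and 13.40 in the p300-deleted samples and 13.33, 13.43 and 13.28 in the controls. Rps2 read 12.87, 12.92 and 13.04 in the p300-deleted samples and 13.12, 13.09 and 13.09 in the controls. The groups overlapped in Rps3 and did not in Rps2, where the controls lay close together and the p300-deleted samples below them. The differences were 0.13 for Rps3 (SE 0.10, adjusted p = 0.568), the highest among the 34 bright members, and -0.16 for Rps2 (SE 0.10, adjusted p = 0.460), the lowest. Rps26, which contacts mRNA near the exit of the channel, read 12.80, 12.78 and 12.83 against 12.93, 12.96 and 12.84 in the controls. All p300-deleted arrays were below the controls, by little in the case of control 3, and the difference was -0.11 (SE 0.10, adjusted p = 0.619).

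Rps29, a small zinc-binding protein and the brightest member on these arrays, hardly varied. Its values were 13.88, 13.91 and 13.91 in the p300-deleted samples and 13.92, 13.91 and 13.91 in the controls, a difference of -0.02. Rpsa, also known as the laminin receptor precursor, had values of 13.33, 13.37 and 13.41 and, in the controls, 13.36, 13.43 and 13.39, again with a difference of -0.02. The groups overlapped in both genes. Rps25, which some viral RNAs need for initiation at internal ribosome entry sites, gave a dimmer signal of 9.0, 9.11 and 9.13 in the p300-deleted samples and 8.91, 9.06 and 8.83 in the controls. Rps27, a zinc finger protein, gave 7.98, 7.85 and 7.83, against 7.92, 7.82 and 7.48 in the controls. Control 3 was the lowest array in both, the groups overlapped, and both differences were 0.15 (SE 0.11 for Rps25 and 0.13 for Rps27). Without control 3 that of Rps27 was 0.02, and without control 1 it was 0.24.

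**Figure D3:**
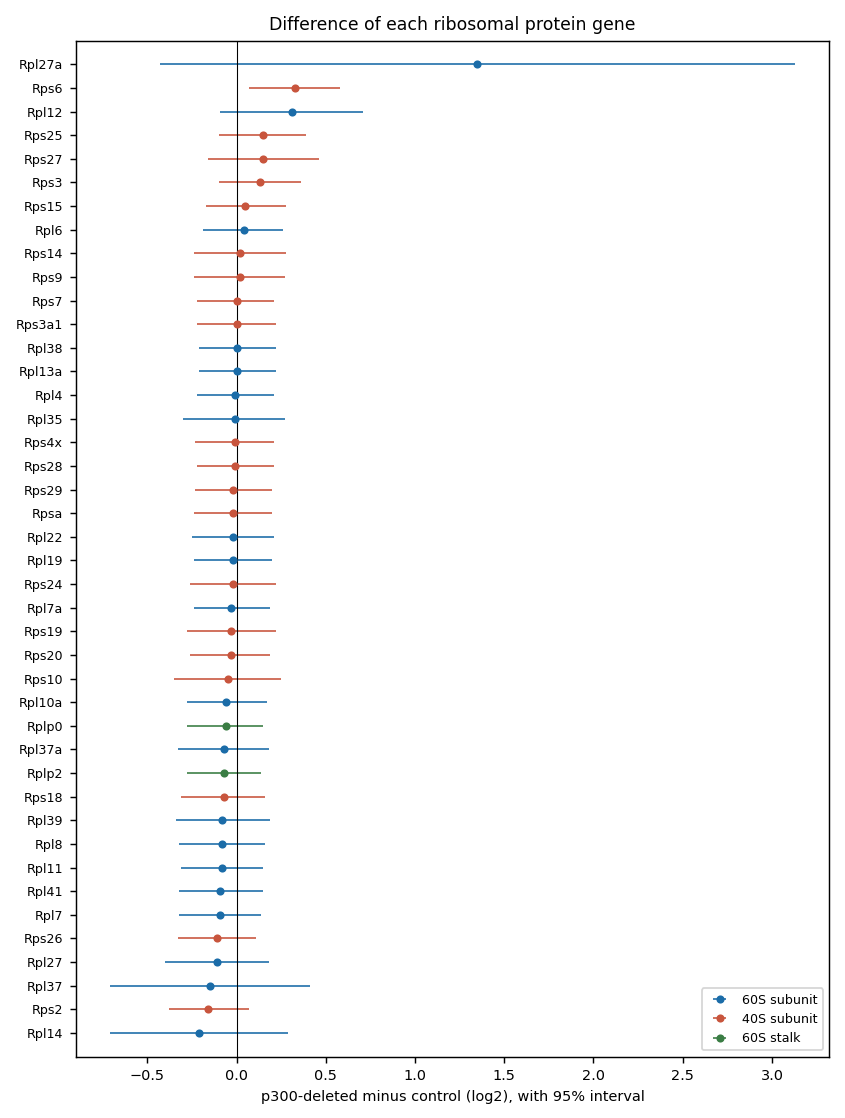
Log2 difference, p300-deleted minus control (horizontal axis), of each of the 42 ribosomal protein genes with its 95% interval from limma, coloured by 60S subunit, 40S subunit and stalk. All intervals but that of Rps6 include 0, and that of Rpl27a is the widest.

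In the 60S subunit, 0 of 20 proteins passed the test, and the median difference was -0.04, with 5 above 0 and 15 below. Rpl27a had the largest difference in size of all 42 members. It read 8.49, 9.53 and 8.56 in the p300-deleted samples and 6.41, 6.43 and 9.68 in the controls. Control 3 was the highest of all 6 arrays, while controls 1 and 2 were far below the rest, so the groups overlapped. The difference was 1.35 (SE 0.78, adjusted p = 0.408). Without control 3 it was 2.44 and passed the test (adjusted p = 0.0135), in a fit where 230 of all genes passed. Under array weights it was 2.14 and passed too (adjusted p = 0.0398), in a fit where 1019 of all genes passed. The 18S control mean was also high in control 3 and in the p300-deleted samples and low in controls 1 and 2. With it as a covariate the Rpl27a difference was -0.23 (adjusted p = 0.788), and 15 of all genes passed, against 149 without it. Because the 18S mean goes partly with the groups, that fit cannot tell them apart, and the cause of the Rpl27a pattern was not tested.

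The other proteins of the large subunit lay much closer to 0. Rpl12, at the base of the stalk, read 7.53, 7.75 and 7.55 in the p300-deleted samples and 7.67, 7.27 and 6.95 in the controls, a difference of 0.31 (SE 0.18, adjusted p = 0.396). Rpl14 read 6.67, 7.02 and 7.06 in the p300-deleted samples and 6.93, 7.65 and 6.81 in the controls, a difference of -0.21 (SE 0.22, adjusted p = 0.663). Both probe sets were dim, the groups overlapped, and 1 control array set much of each difference: control 3 was the lowest for Rpl12 and control 2 the highest for Rpl14. Without control 3 the Rpl12 difference was 0.14, and without control 2 the Rpl14 difference was 0.05, on the other side of 0. Rpl37, a zinc-binding protein, read 9.67, 9.80 and 9.58 against 10.03, 10.27 and 9.20 in the controls, with the p300-deleted samples between control 3 and the other two. Its difference was -0.15 (SE 0.24), and without control 3 it was -0.47.

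Rpl38, which in mice is needed for the translation of a subset of Hox mRNAs, read 13.69, 13.73 and 13.69 in the p300-deleted samples and 13.73, 13.73 and 13.65 in the controls, with a difference of 0.00. Rpl27 read 12.88, 12.77 and 12.82 in the p300-deleted samples and 13.01, 13.11 and 12.69 in the controls, a difference of -0.11 (SE 0.13) that ran from -0.23 without control 3 to -0.02 without control 2. Rpl7, which lies near the 5S RNA, read 12.88, 12.98 and 12.97, and 13.01, 13.13 and 12.96 in the controls, a difference of -0.09 (SE 0.10), or -0.04 without control 2. In all 3 genes the groups overlapped, with control 3 the lowest control. Rpl39, a short protein that lines the exit tunnel, was the dimmest member, at 4.86, 4.94 and 4.82 in the p300-deleted samples and 4.91, 5.14 and 4.80 in the controls. Its difference was -0.08 (SE 0.12), from -0.15 without control 3 to 0.02 without control 2, and its groups overlapped as well.

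The size of a difference went with the brightness of the probe set. The 8 members with a mean under 12 (Rpl12, Rpl14, Rpl27a, Rpl37, Rpl39, Rps6, Rps25 and Rps27) differed by -0.21 to 1.35, and only Rpl39 lay within 0.1. Each of these 8 genes was also listed by a bright probe set that names other genes beside it, with means of 12.56 to 13.96. The differences of those probe sets were 0.07 for Rpl12, -0.09 for Rpl14, -0.06 for Rpl27a, -0.06 for Rpl37, -0.05 for Rpl39, -0.02 for Rps25, -0.05 for Rps27 and -0.00 for Rps6. In all 8, the brighter probe set, which lists several genes, lay within 0.1 of no difference. Which transcripts each probe set bound in these samples was not tested.

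Rpl22, Rpl27a and Rps6 showed the widest gaps between probe sets that name the gene alone. The brightest Rpl22 probe set read 12.26, 12.33 and 12.29 in the p300-deleted samples and 12.31, 12.41 and 12.22 in the controls, a difference of -0.02. The second, of the kind that can bind several transcripts, read 8.55, 8.68 and 8.29 in the p300-deleted samples and 7.75, 7.54 and 7.83 in the controls. The groups overlapped in the first, and in the second every p300-deleted array was above every control. In a fit over 14276 probe sets with 1 symbol the second differed by 0.80 (SE 0.14), with an unadjusted limma p of 0.000425 and an adjusted p of 0.0643, the lowest adjusted p of the members' probe sets in that fit. The second probe set of Rpl27a was at the dim end, and it differed by -0.03. That of Rps6, also dim, differed by -0.22, and both were too dim to be tested. The bright probe set that lists Rpl27a beside 4 other symbols, and so names no gene, read 13.26, 13.29 and 13.22 in the p300-deleted samples and 13.36, 13.32 and 13.28 in the controls, without the low values of controls 1 and 2.

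**Figure D4:**
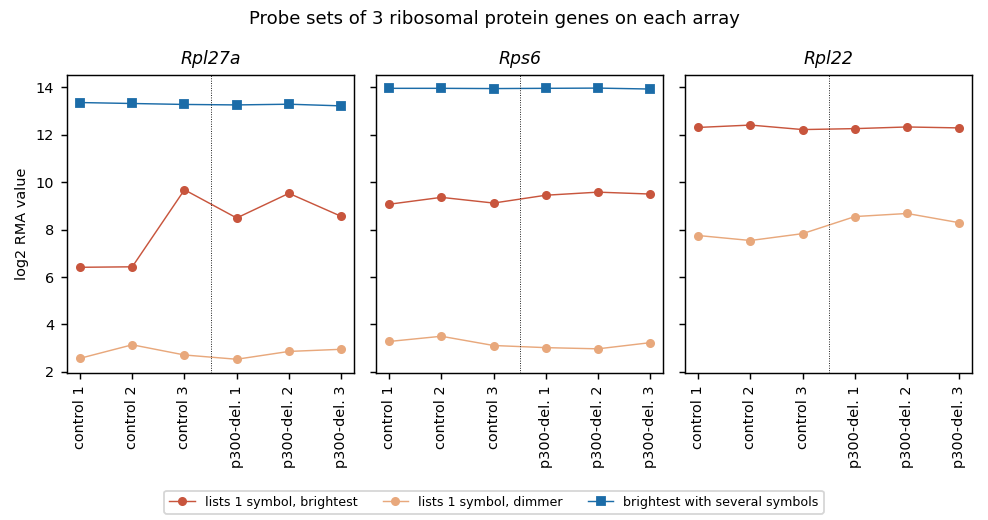
Log2 RMA value (vertical axis) of the probe sets of Rpl27a, Rps6 and Rpl22 on each of the 6 arrays, with circles for probe sets that name the gene alone and squares for the brightest probe set that lists it with other symbols. The step of the brighter Rpl27a circles between controls 1 and 2 and the other 4 arrays is absent from the squares, and the dimmer Rpl22 circles are higher in the p300-deleted arrays while the brighter ones are level.

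Of the 42 members, 21 had several probe sets that name them alone, up to 6, and in 11 of the 21 these differed in sign. Some of these signs rest on very small differences, as in Rps28, which ran from -0.01 to 0.02. The range of differences over a gene's probe sets was 1.38 for Rpl27a, 0.81 for Rpl22, 0.55 for Rps6, 0.52 for Rps18 and 0.47 for Rpl41. Signs and ranges include probe sets too dim to be tested. The low ends of Rpl27a, Rps6 and Rps18 came from such probe sets, with means of 2.79, 3.19 and 3.28, so these widths may be noise. Rps18, in the head of the small subunit, ran from -0.30 to 0.22 over 6 probe sets, and Rpl41, a very short basic peptide, from -0.11 to 0.35 over 4. Of the 91 such probe sets, 83 passed the filter on dim values, 0 of the 83 passed the test (background 0.455%) and 3 had an unadjusted p under 0.05 (background 17.3%): those of Rpl22 and Rps6 above and a dim one of Rpl41, which read 7.69, 7.83 and 8.03 against 7.70, 7.25 and 7.55. The 59 with a mean of at least 12 differed by -0.16 to 0.13. The 24 tested ones below that level differed by -0.24 to 1.35.

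Probe sets that list a ribosomal protein gene together with other symbols also lay near 0. There were 102 of them, 98 of which passed the filter. In a fit over all 15839 probe sets other than controls, 0 of the 98 passed the test (background 0.537%) and 1 had an unadjusted p under 0.05 (background 17.3%). Their differences ran from -0.23 to 0.37 with a median of -0.02, and the 72 with a mean of at least 12 ran from -0.19 to 0.08. With the brightest listing probe set for each gene, whether it names the gene alone or not, 69 ribosomal protein genes could be read, all with a mean of at least 12.30. Their differences ran from -0.14 to 0.13 with a median of -0.02, 64 of 69 lay within 0.1, and 0 passed the test, with a lowest adjusted p of 0.575. This reading was chosen once the values were known, and such probe sets can bind transcripts of several genes.

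**Figure D5:**
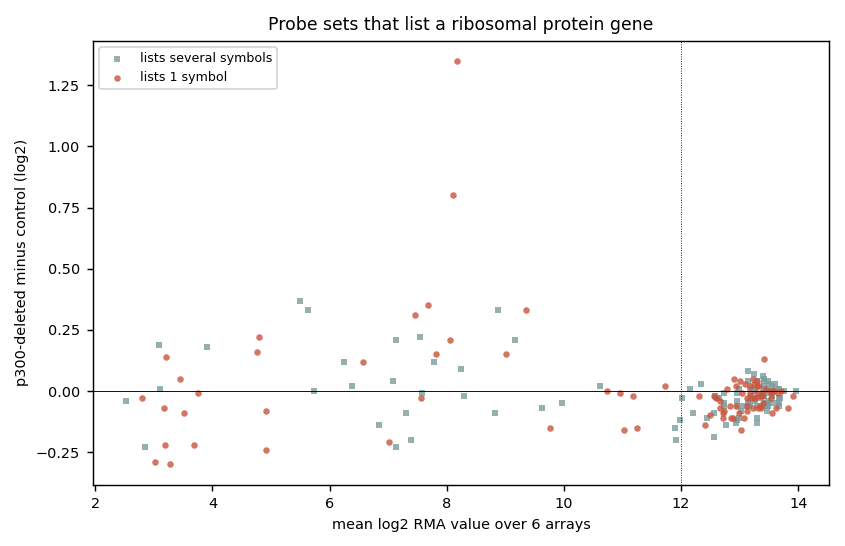
Mean log2 RMA value over the 6 arrays (horizontal axis) and the log2 difference, p300-deleted minus control (vertical axis), of every probe set that lists a ribosomal protein gene, alone (circles) or with other symbols (squares), with the level of 12 dotted. To the right of 12 all points lie between -0.19 and 0.13, and the larger differences, up to 1.35, lie to the left.

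Genes around the ribosome were read in the same fit, and 0 of the tested genes in any of these lists passed the test. Of the proteins that belong to the ribosome but fall outside the rule, Fau, which encodes the 40S protein eS30 fused to a ubiquitin-like domain, read 13.28, 13.28 and 13.37 in the p300-deleted samples and 13.30, 13.42 and 13.14 in the controls, a difference of 0.02. Of the 6 measured paralogues, 5 were tested, with differences of -0.21 for Rps27l, -0.11 for Rpl7l1, -0.07 for Rps4l, 0.03 for Rpl22l1 and 0.13 for Rpl39l. Rpl22l1, the paralogue that can stand in for Rpl22, read 12.02, 12.25 and 11.95 against 12.02, 12.21 and 11.91 in the controls. Rpl3l was too dim to be tested. The groups overlapped in every one of these genes. Leaving out 1 array moved the difference to either side of 0 in Fau, Rpl22l1, Rps4l and Rpl39l, the last from -0.08 to 0.53. Without control 2 Rps27l was at -0.11 and Rpl7l1 at -0.02.

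Other mRNAs with a TOP motif and the factors that control their translation were also near 0. The 15 other TOP mRNAs measured had a median difference of 0.02, with Eif3e, a subunit of the eIF3 complex, the highest at 0.33 and Nap1l1, a histone chaperone, the lowest at -0.22. Several of the 15, such as Eif3e, Eef1a1 and Fau, also belong to the initiation, elongation or ribosome partner lists, so these lists are not separate. Eif3e read 12.33, 12.49 and 12.42 in the p300-deleted samples and 11.99, 12.13 and 12.12 in the controls, without overlap (SE 0.10, adjusted p = 0.148). The 10 measured genes of the mTOR pathway and of TOP mRNA control had a median of -0.06, from -0.31 for the kinase Akt1 to 0.35 for the S6 kinase Rps6kb2. Akt1 read 8.59, 8.57 and 8.66 in the p300-deleted samples and 9.04, 8.78 and 8.93 in the controls, all above (SE 0.11, adjusted p = 0.183). In the 9 chaperones and importins of ribosomal proteins the median was -0.07, from -0.30 for Ipo4 to 0.40 for Ipo7, both of which carry proteins into the nucleus. Leaving out control 2 gave 0.19 for Ipo7 and 0.20 for Rps6kb2, and leaving out control 3 gave 0.62 for Ipo7. Without p300-deleted sample 2 Nap1l1 was at -0.13.

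The 28 initiation factors measured had a median of -0.03, and in 10 of them the groups did not overlap, 5 higher (10.5% of all genes) and 5 lower (13.2%). The cap-binding factor Eif4e read 8.92, 9.15 and 8.69 in the p300-deleted samples and 8.25, 8.24 and 8.49 in the controls, a difference of 0.59 (SE 0.14, adjusted p = 0.079). Eif3b, a scaffold subunit of eIF3, read 8.95, 9.08 and 9.15, and 9.53, 9.22 and 9.39 in the controls, a difference of -0.32 (SE 0.12, adjusted p = 0.210). The groups did not overlap in either gene. Among the 6 elongation factors, with a median of -0.03, Eef1a1, which delivers aminoacyl-tRNAs, differed by 0.04 and Eif5a, which helps form difficult peptide bonds, by -0.27 (SE 0.10, adjusted p = 0.198). Eif5a read 12.59, 12.53 and 12.56 against 12.89, 12.81 and 12.78 in the controls, again without overlap. The 5 termination and recycling factors had a median of -0.34, from -0.43 for the ribosome rescue factor Hbs1l to 0.61 for the release factor Etf1, and the groups did not overlap in 3 of the 5, against 23.7% of all genes. Without control 2 the Etf1 difference was 0.34. Under array weights Akt1, Eif3b, Eif3e, Eif4e, Eif5a, Hbs1l, Ipo4, Mrpl1 and Psmd10 passed the test, each in the direction of its difference given in the text. In that fit 1019 of all genes tested passed, against 149 without weights.

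The mitochondrial ribosomal proteins and the proteasome subunits are also complexes with many subunits, and their genes were read the same way. The 74 mitochondrial ribosomal protein genes had a median of -0.08 and a range from -0.36 for Mrpl12 to 0.57 for Mrpl1, and in 10 of them the groups did not overlap, against 23.7% of all genes. The 38 proteasome subunits tested had a median of -0.05, ran from -0.43 for Psmd1 to 0.40 for Psmd10, and in 10 the groups did not overlap, near the background share. Leaving out control 2, whose mean of 8.74 over the mitochondrial list stood above the 8.36 to 8.49 of the other arrays, turned both medians, to 0.03 for the mitochondrial genes and 0.02 for the proteasome. Mrpl12 was then at -0.21, and Mrpl1 was at 0.25 without control 1. In both lists 0 genes passed the test, as among the cytosolic ribosomal proteins. The median spread within a group was 0.071 for the cytosolic ribosomal protein genes, 0.172 for the mitochondrial ones, 0.129 for the proteasome subunits and 0.153 for all genes tested. The difference between these lists was not tested.

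The means of the T cell, Treg, plasma cell, myeloid, mast cell and basophil, NK cell, CD8 and cell cycle markers separated the groups alongside all of these values. Not every marker did so singly. Higher without overlap were 3 of 7 T cell, 6 of 7 plasma cell and 5 of 11 myeloid markers. So were 4 of 6 mast cell and basophil, 2 of 5 NK cell and 1 of 2 CD8 markers, against 10.5% of all genes tested. Of the cell cycle genes, 10 of 14 were lower without overlap, against 13.2% of all genes. Of the 8 Treg markers, 4 were higher and only Foxp3 was lower without overlap, and Foxp3 set the lower mean of that list. Some markers differed the other way from their list: Nkg7 (-0.37) and Prf1 (-0.01) of the NK cell list and Thy1 (-0.23) of the T cell list. Prdm1 of the plasma cell list and Ms4a2 of the mast cell and basophil list did so too, both at -0.09. With the plasma cell marker mean as a covariate the median of the 42 ribosomal protein genes was 0.09 and 0 passed the test. That marker mean itself separated the groups, at 8.46 to 9.0 in the p300-deleted samples and 7.66 to 7.76 in the controls. With it only 1 of all genes tested passed, so this fit can hardly tell the markers and the genotype apart. The part of the T cell, Treg, myeloid, mast cell, NK cell, CD8 and cell cycle genes in these values was not tested.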

How the data were processed

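RNA was measured on 6 Affymetrix expression arrays, 3 p300-deleted and 3 control. The values the authors deposited are log2 signals of probe sets. The submitters' processing notes name RMA, with no version given in the sources used here. RMA forces the arrays to a common distribution, so cells with more or less RNA in all would not show as such. The number of arrays limits the precision.

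Of 22690 probe sets, 64 are controls, 20393 have 1 gene symbol, 691 several and 1606 none. A gene's value is its probe set with 1 symbol and the highest mean over all arrays. The dimmest 30% of genes (below 3.91, 3718 genes) were left out, and 8676 were tested in limma (lmFit and eBayes, version 3.58.1, run in R 4.3.3) by a two-sided test without covariates, adjusted after Benjamini and Hochberg. The same test was run over probe sets. The code was tested on simulated data. Several transcripts or pseudogenes can bind to probe sets named with the endings _s_at, _x_at and _a_at. RefSeq sequences are of GRCm38.p6. No build applies to the array values.

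The members, gene lists and alternatives were chosen with earlier results of these data known. Named were the 6 highest and 6 lowest differences, the 3 brightest and 3 dimmest members, the 5 with the widest range over probe sets, a few genes fixed by role, and the highest and lowest of each other list. Members named beyond these were chosen after their values were seen. Same-numbered samples of the groups had deviations that correlated at -0.0740, 0.1230 and -0.1200, so the numbers were not treated as pairs. The alternatives were other filters, normalizations and probe set choices, array weights, a replicate block, 18S and plasma cell covariates, other thresholds and leaving out each array.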

Additional observations from a re-analysis of the deposited data

How the results depend on the processing

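The count of 0 ribosomal protein genes past the threshold held under 18 of 21 alternatives. In some of these it was fixed in advance. The lowest adjusted p of 0.188 settled the threshold of 0.1, and the bright members are part of the 42. Fits that called few genes of any kind, such as those with a covariate, could hardly give another count. The count was 2 under array weights (Rpl27a and Rps6), 1 without control 3 (Rpl27a), so that leaving out each array gave 0 to 1, and 1 at an unadjusted p under 0.05 (Rps6). The count over all genes was 149, and it moved to 95 with the mean of a gene's probe sets, 1019 under array weights, 15 with the 18S covariate, 1 with the plasma cell covariate, 399 at an adjusted p under 0.1, 1571 unadjusted and 9 to 230 when each array was left out. The replicate block gave 98 genes and 0 ribosomal protein genes, and changed no call of a named gene.

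With the plasma cell covariate the medians were 0.09 for the 42 members, 0.09 for the 60S, 0.11 for the 40S and 0.04 for the stalk proteins, 0.09 for the paralogues, 0.09 for elongation, 0.07 for initiation, 0.17 for other TOP mRNAs, 0.03 for chaperones and importins, -0.17 for TOP control, 0.10 for termination and 0.04 for the proteasome. With the 18S covariate they were -0.00 for other TOP mRNAs and -0.18 for termination. With the mean of all probe sets they were -0.08 for elongation and -0.13 for termination, with array centring -0.09 for the stalk and -0.05 for initiation, and under array weights 0.02 for initiation and -0.03 for chaperones. Leaving out each array gave medians of -0.06 to -0.00 for the members, -0.11 to -0.00 for the 60S, -0.09 to -0.01 for elongation, -0.05 to 0.00 for initiation, -0.04 to 0.05 for other TOP mRNAs, -0.36 to -0.24 for termination, -0.15 to 0.03 for the mitochondrial ribosomal proteins and -0.12 to 0.02 for the proteasome. The causes were not tested. Of 43 named genes, 12 of 723 alternative values newly passed the threshold, 11 of them under array weights, and 45 crossed 0 without a call.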
